A study of Mus musculus with 6 samples.

Results

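The 38 genes described here encode the contractile and stress fibre machinery of mesenchymal cells other than the actins themselves. They were taken by gene symbol from a count table of 24061 genes, by a rule that uses none of the measured values. The list of symbols was, however, chosen with earlier results of these data known. All 38 symbols were found, 1 of them (Mkl1, now called Mrtfa) under an older name. The libraries came from cultured fibroblasts of fibrotic lungs, described by the submitters as resident, from mice with a TGF-alpha transgene. Libraries 4 to 6 had received a stealth siRNA against WT1 (Wt1 siRNA, 3 libraries), and libraries 1 to 3 a stealth control siRNA (control, 3 libraries). TGF-alpha activates the epidermal growth factor receptor, and cells of both groups carried the transgene. The promoter that drives the transgene, the age and strain of the mice, the passage and the time after transfection were not stated. Nothing in the labels tells if the 3 libraries per group were independent cultures or mice. The p-values therefore reflect the variation among these 6 samples alone, part of which may be technical.

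Stress fibres are bundles of actin filaments that non-muscle myosin pulls together, and they are anchored at focal adhesions. Tropomyosins, calponins, transgelins and caldesmon line the filaments, alpha-actinin and filamin crosslink them, and PDZ-LIM proteins sit on alpha-actinin. Many of these genes are transcribed by serum response factor (SRF) with its coactivators, the MRTFs and myocardin. The MRTFs respond to the pool of unpolymerised actin. Lung fibroblasts that become myofibroblasts are known for gaining smooth muscle actin and other smooth muscle proteins, which gives the cell its pulling force on the matrix.

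Library totals were 26141921 to 32085698 counts, so that 3 counts were worth 0.0935 to 0.115 CPM (read counts scaled to a common library size). Wt1, the zinc finger transcription factor that the siRNA targets, had 11.4, 8.63 and 7.92 CPM after Wt1 siRNA and 48.8, 55.7 and 51.5 CPM in controls, a log2 fold change of -2.48 ± 0.16 (SE; adjusted p = 5.98e-06, Benjamini-Hochberg, quasi-likelihood test of edgeR). Of 10 fibroblast markers 4 were higher and 2 lower, among the lower ones Pdgfra, a growth factor receptor (-1.17 ± 0.13). Their summed level was 30529 to 37677 CPM after Wt1 siRNA and 19340 to 28537 CPM in controls. Most of that sum was Col1a1 (mean 17421 CPM after Wt1 siRNA, 7982 CPM in controls) and Col1a2 (9655 and 5793 CPM), both called higher. Col3a1 was called lower (5391 and 7430 CPM). Of 10 pericyte and vascular smooth muscle markers 9 were tested, and the main edgeR test called 0, beside 19.3% of all genes tested. An unadjusted p below 0.05 was seen for 3, beside 32.1% of all genes tested. DESeq2 called 1 higher and 2 lower, and limma-voom 1 higher. Without the filter on low counts edgeR called 2 lower. It called 1 lower without control library 1 or 2 or Wt1 siRNA library 6, and 1 higher without control library 3. The 10 markers had a sum of 355 to 438 CPM after Wt1 siRNA and 360 to 457 CPM in controls. Most of that sum was Pdgfrb, which fibroblasts also express. Mcam had a mean of 32.5 CPM after Wt1 siRNA and 38.9 CPM in controls, and Notch3 15.9 and 16.6 CPM. Means were 15.2 and 10.4 CPM for Cspg4, 10.8 and 13.2 CPM for Plcl1 and 7.68 and 9.64 CPM for Abcc9. Less was seen of Kcnj8 (1.26 and 3.44 CPM), Hhip (1.08 and 2.98 CPM) and Rgs5 (0.962 and 1.03 CPM), and Higd1b was near 0. Summed markers of striated muscle (2.28 to 3.61 CPM after Wt1 siRNA, 1.39 to 5.45 CPM in controls) were near 0, with Myod1, Myog and Myf5 at no count and 0 of the 4 tested called (0 also at an unadjusted p below 0.05). Epithelial (78.3 to 90.1 against 62.3 to 84.6 CPM), endothelial (192 to 246 against 184 to 229 CPM) and macrophage markers (35.7 to 42.7 against 45.5 to 55.7 CPM) were low beside the fibroblast markers. Called genes in these lists were Krt19 (higher) and 1 lower gene of the epithelium, Kdr (lower, -0.88) and 1 higher gene of the endothelium, and Cd14 (lower, -1.15) of macrophages. Krt19 is also in the mesothelial list and is counted among the higher genes of both lists. The Kdr call was lost when control library 1 (adjusted p = 0.0587) or 3 (0.0878) or library 4 of the Wt1 siRNA group (0.0904) was left out. Mesothelial markers summed to 165 to 211 CPM after Wt1 siRNA and 206 to 262 CPM in controls, with 2 higher and 3 lower, among them Lrrn4 (-2.10 ± 0.15). All 20 mitosis genes listed were lower, Cenpf by 1.45 ± 0.16 on the log2 scale, and summed to 464 to 611 CPM after Wt1 siRNA against 1037 to 1393 CPM in controls. The part of these shifts in the results below was not tested, and fewer cells of a kind and less RNA per cell cannot be told apart in bulk samples.

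After Wt1 siRNA, 6 of the 38 contractile and stress fibre genes were higher, 3 were lower and 29 did not pass an adjusted p of 0.05. The higher ones were the PDZ-LIM genes Pdlim1 and Pdlim7, the focal adhesion gene Zyx, the intermediate filament gene Vim, and the actin crosslinkers Actn1 and Flna. Lower were Smtn, Tpm3 and Palld, which encode filament-associated proteins. All 38 passed the filter on low counts. The share called, 23.7%, stood beside 19.3% of the 14190 genes tested, and the directions beside 9.05% higher and 10.3% lower in the table, so the number of members called was near the background. The median log2 fold change was 0.08, against 0.00 over all genes tested, with 22 members above 0 and 16 below. No member changed 2-fold. The members' fitted values ran from -0.55 (Smtn) to 0.86 (Pdlim1). For 18 members the groups were fully separated, 10 higher (18.1% of all genes tested) and 8 lower (18.3%), where 36.4% of all genes tested had such a gap. An unadjusted p below 0.05 was seen for 15 members and 32.1% of the genes tested. Together the 38 genes took 2.31%, 2.38% and 2.20% of the counts after Wt1 siRNA and 2.23%, 2.34% and 2.23% in controls, with overlapping groups.

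The number of members called varied with the processing, as did the number called in the table. Library size scaling called 4 members higher and 8 lower (6.03% and 12.9% of genes tested, 18.9% in all), adding Actn4, Cald1, Des, Ppp1r12a and Tagln2 to the lower ones. DESeq2 called 7 and 6 (10% and 10.7%, 20.7% in all). limma-voom called 7 and 4 (9.66% and 10.2%, 19.9% in all), as did robust shrinkage (9.3% and 10.3%, 19.6% in all). The stricter filter gave 5 and 4 (10.1% and 11.6%, 21.7% in all). No filter (7.81% and 8.57%, 16.4% in all) and DESeq2 size factors in edgeR (9.14% and 10.2%, 19.4% in all) each gave 6 and 3. When a library was left out, the members called higher and lower numbered 2 and 2 without Wt1 siRNA library 4 (3.96% and 5.37%, 9.33% in all), 4 and 4 without library 5 (5.74% and 7.36%, 13.1% in all) and 6 and 3 without library 6 (7.35% and 8.87%, 16.2% in all). They numbered 4 and 3 without control library 1 (6.94% and 7.81%, 14.8% in all), 6 and 3 without control library 2 (8.61% and 9.66%, 18.3% in all) and 4 and 3 without control library 3 (6.23% and 7.04%, 13.3% in all).

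**Figure D1:**
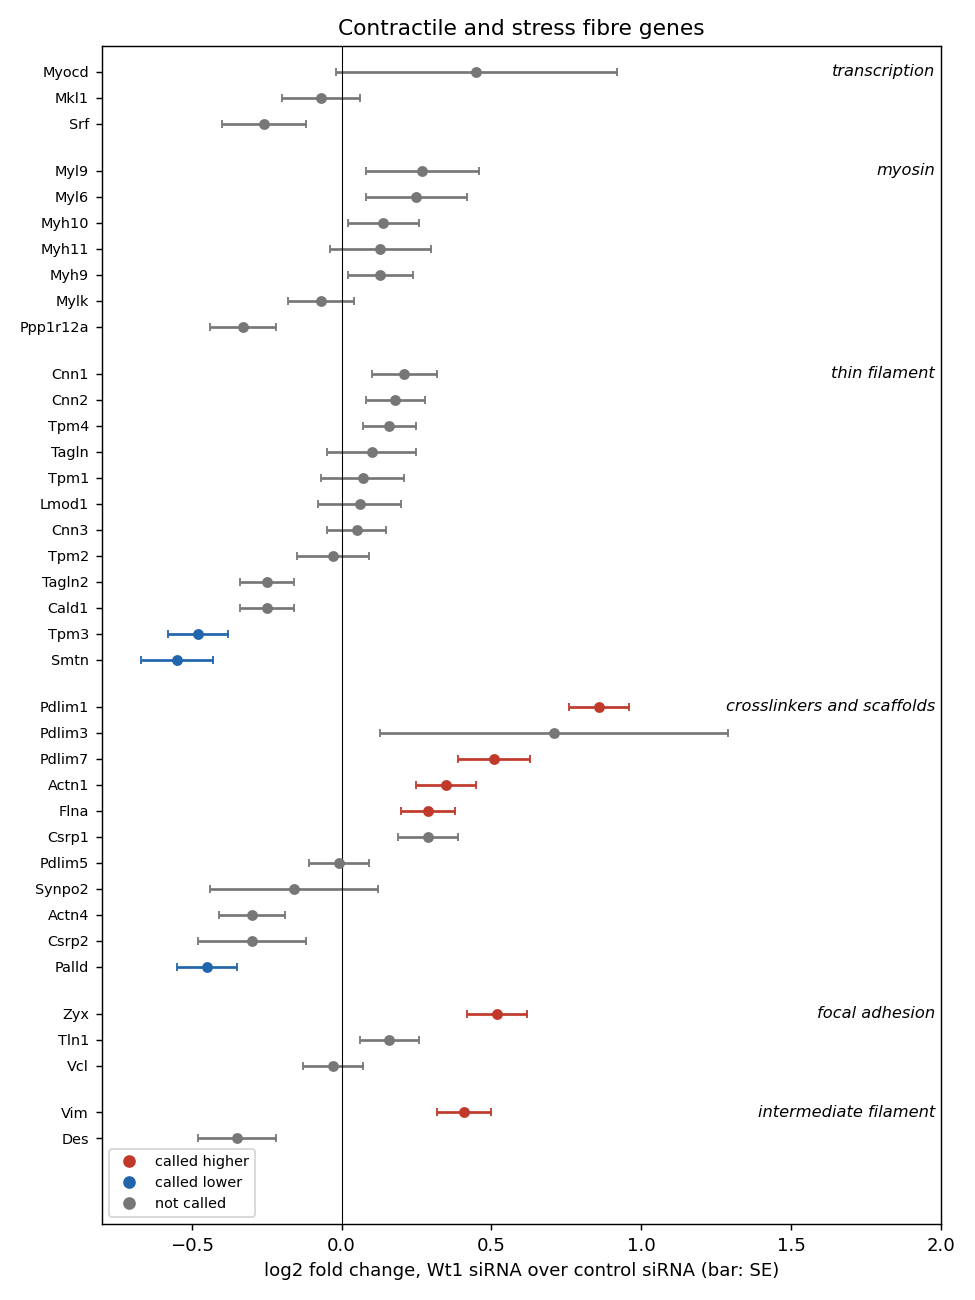
Log2 fold change (Wt1 siRNA over control siRNA, horizontal axis) of each of the 38 members, ordered by role, with bars for the standard error. Red marks the 6 members called higher, blue the 3 called lower and grey the 29 not called, and the crosslinkers and scaffolds span the range from -0.45 (Palld) to 0.86 (Pdlim1).

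Of the 3 transcriptional regulators 0 were called by edgeR, DESeq2 or limma-voom, and 0 had an unadjusted p below 0.05. Among all genes tested, edgeR called 19.3%, and 32.1% had such a p. Srf, the DNA-binding factor itself, had 34.8, 40.3 and 32.4 CPM after Wt1 siRNA and 35.4, 44.6 and 48.3 CPM in controls. The groups overlapped through control library 1, and the log2 fold change was -0.26 ± 0.14 (adjusted p = 0.252). Mkl1, the coactivator MRTF-A that actin monomers hold back, had 68.2, 71.3 and 60.7 CPM after Wt1 siRNA against 59.4, 75.9 and 74.5 CPM (-0.07 ± 0.13, adjusted p = 0.767). Myocd, the myocardin coactivator of smooth and cardiac muscle, was low at 1.49, 1.85 and 1.78 CPM after Wt1 siRNA and 1.30, 0.985 and 1.47 CPM in controls. Its Wt1 siRNA libraries all lay above the controls, but by little, and the error was wide (0.45 ± 0.47, adjusted p = 0.560).

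Of 7 genes of the myosin motor and its control 0 were called by edgeR, beside 19.3% of all genes tested. Only 1 (Ppp1r12a) had an unadjusted p below 0.05 (32.1% of all genes tested), and it was called by DESeq2 and limma-voom. Myl9, the regulatory light chain whose phosphorylation switches the motor on, had 213, 237 and 168 CPM after Wt1 siRNA and 142, 232 and 137 CPM in controls (0.27 ± 0.19, adjusted p = 0.365). Control library 2 stood apart from the other controls and inside the Wt1 siRNA range. Without that library Myl9 was 0.56 ± 0.14 higher and passed (adjusted p = 0.0188). Myh11, the smooth muscle heavy chain, was low for a contractile gene at 48.7, 45.1 and 32.8 CPM after Wt1 siRNA and 37.4, 46.2 and 31.8 CPM in controls (0.13 ± 0.17). The non-muscle heavy chains were far more abundant, with Myh9 at 1787 to 2023 CPM after Wt1 siRNA and 1565 to 1925 CPM in controls, and Myh10 at 332 to 406 against 304 to 375 CPM. Neither passed (0.13 ± 0.11 and 0.14 ± 0.12). Per length of annotated exons, Myh9 made up 84.1% ± 0.61 of the heavy chain signal after Wt1 siRNA and 84.2% ± 0.81 in controls, and Myh11 2.08% ± 0.33 and 2.09% ± 0.29 (SD, n = 3). Myl6, the essential light chain, was at 0.25 ± 0.17, and Mylk, the kinase that phosphorylates Myl9, at -0.07 ± 0.11. Ppp1r12a, the targeting subunit of the myosin phosphatase that reverses this, had 57.5, 56.4 and 53.4 CPM after Wt1 siRNA and 66.7, 68.7 and 74.4 CPM in controls. All its Wt1 siRNA libraries were below all controls, yet its adjusted p of 0.0517 (-0.33 ± 0.11) missed the threshold in edgeR. It passed with DESeq2 (0.0415), limma-voom (0.0485), robust shrinkage (0.0486), the stricter filter (0.0444) and library size scaling (0.0203).

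Of 12 genes of the thin filament, 2 were lower and none was higher (0 by edgeR, DESeq2 and limma-voom), while 4 had an unadjusted p below 0.05. The share called by edgeR, 16.7%, stood beside 19.3% of all genes tested (9.05% higher and 10.3% lower). An unadjusted p below 0.05 was seen for 32.1% of all genes tested. Smtn, smoothelin, a protein of contractile smooth muscle filaments (GRCm38 chromosome 11, 3517522 to 3539292), had 55.4, 55.3 and 60.1 CPM after Wt1 siRNA against 76.1, 94.2 and 80.1 CPM in controls. The groups were clearly apart, and the log2 fold change was -0.55 ± 0.12, or 1.47-fold lower (adjusted p = 0.00626). Tpm3, a tropomyosin found in most cell types (chromosome 3, 90072651 to 90100902), had 258, 260 and 263 CPM after Wt1 siRNA and 333, 368 and 388 CPM in controls. Its Wt1 siRNA libraries were nearly equal, and it fell by 0.48 ± 0.10 in log2 units (adjusted p = 0.00597). Both genes passed under all alternatives tried, but narrowly without Wt1 siRNA library 4 (adjusted p = 0.0481 for Smtn and 0.0498 for Tpm3). The other tropomyosins did not pass. Tpm1, which smooth muscle and fibroblasts share, had 2328, 2741 and 1955 CPM after Wt1 siRNA and 1898, 2551 and 2253 CPM in controls (0.07 ± 0.14), and its sign turned with library size scaling (-0.02) and when control library 1 (-0.03) or library 5 of Wt1 siRNA (-0.06) was left out. Tpm2, the other smooth muscle form, had 181, 191 and 195 CPM after Wt1 siRNA and 189, 225 and 167 CPM in controls (-0.03 ± 0.12). Tpm4, a non-muscle form, was at 1351 to 1495 CPM after Wt1 siRNA, above the 1215 to 1284 CPM of controls, without passing (0.16 ± 0.09, adjusted p = 0.258). Per exon length, Tpm3 supplied 6.04% ± 0.56 of the tropomyosin signal after Wt1 siRNA and 8.77% ± 0.42 in controls, while Tpm4 and Tpm1 supplied most of it in both groups. These counts are per gene, so the many tropomyosin splice forms were not separated, and reads shared between the similar paralogs cannot be checked.

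The other 7 thin filament members did not pass. Tagln, transgelin, one of the earliest genes of smooth muscle differentiation, had 1635, 1958 and 1331 CPM after Wt1 siRNA and 1348, 1855 and 1393 CPM in controls. The groups overlapped over nearly their whole range (0.10 ± 0.15, adjusted p = 0.716), and without Wt1 siRNA library 5 the value was -0.05. Cnn1, the calponin of smooth muscle, which slows the myosin ATPase on actin, had 93.2, 100 and 87.4 CPM after Wt1 siRNA and 76.9, 87.8 and 77.3 CPM in controls (0.21 ± 0.11, adjusted p = 0.201). Lmod1, a nucleator of actin filaments in smooth muscle, was low at 18 to 19.6 CPM after Wt1 siRNA and 16.7 to 19.4 CPM in controls (0.06 ± 0.14). The widely expressed calponins Cnn2 (0.18 ± 0.10) and Cnn3 (0.05 ± 0.10) did not pass either. Tagln2, the transgelin of non-muscle cells, was at 765 to 825 CPM after Wt1 siRNA, below the 896 to 963 CPM of controls (-0.25 ± 0.09, adjusted p = 0.0865). Cald1, caldesmon, an inhibitor of the myosin-actin interaction, likewise lay at 1666 to 1791 CPM after Wt1 siRNA, below 1982 to 2083 CPM in controls (-0.25 ± 0.09, adjusted p = 0.0713). Tagln2 passed with library size scaling (adjusted p = 0.0213), and Cald1 with that (0.0253) and with DESeq2 (0.0369).

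Of 11 crosslinkers and scaffolds, 4 were higher and 1 was lower, beside 9.05% higher and 10.3% lower among all genes tested, and a difference from the other roles was not tested. Pdlim1, a PDZ-LIM protein that binds alpha-actinin on stress fibres (chromosome 19, 40222239 to 40271616), moved furthest of all members. It had 185, 195 and 193 CPM after Wt1 siRNA and 103, 103 and 109 CPM in controls, a log2 fold change of 0.86 ± 0.10, or 1.81-fold (adjusted p = 1.77e-04). The gap between the groups was many times the spread within them. Pdlim7, known as Enigma, another PDZ-LIM protein on actin filaments (chromosome 13, 55497487 to 55513473), had 161, 159 and 142 CPM after Wt1 siRNA and 103, 123 and 98.8 CPM in controls. It was 0.51 ± 0.12 higher (adjusted p = 0.00912), and without Wt1 siRNA library 4 the adjusted p was 0.0624. Their relatives did not pass. Pdlim5 had 388 to 431 CPM after Wt1 siRNA and 400 to 454 CPM in controls (-0.01 ± 0.10), and Pdlim3, the form of striated muscle, was low at 0.657 to 2.34 CPM after Wt1 siRNA and 0.864 to 1.34 CPM in controls (0.71 ± 0.58). Within the PDZ-LIM members and per exon length, Pdlim1 took 39.6% ± 1.99 after Wt1 siRNA and 29.5% ± 0.77 in controls, and Pdlim5 32.1% ± 0.83 and 43.7% ± 2.47, so that their order was exchanged in every library.

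Actn1, an alpha-actinin that ties antiparallel filaments (chromosome 12, 80167542 to 80260420), had 1431, 1506 and 1311 CPM after Wt1 siRNA and 1020, 1216 and 1087 CPM in controls, without overlap (0.35 ± 0.10, adjusted p = 0.0330). Flna, filamin A, which links filaments into networks and to the membrane (chromosome X, 74223461 to 74249854), had 2440, 2384 and 2156 CPM after Wt1 siRNA and 1904, 1873 and 1919 CPM in controls (0.29 ± 0.09, adjusted p = 0.0461). Both calls were marginal. The Actn1 call was lost by leaving out control library 1 (adjusted p = 0.108), control library 3 (0.0859), library 4 of Wt1 siRNA (0.134) or library 5 of Wt1 siRNA (0.114), and with library size scaling (0.0648). The Flna call was lost by leaving out the same libraries, in that order (0.0878, 0.0811, 0.211 and 0.129), or control library 2 (0.0576), and with library size scaling (0.133) or the stricter filter (0.0502). Palld, palladin, a scaffold of stress fibre dense regions (chromosome 8, 61511431 to 61902707), went the other way. It had 318, 358 and 347 CPM after Wt1 siRNA and 430, 476 and 488 CPM in controls, with a clear gap (-0.45 ± 0.10, adjusted p = 0.00954, and 0.0842 without Wt1 siRNA library 4). Actn4, the paralog of Actn1, was at 451 to 526 CPM after Wt1 siRNA, below the 555 to 667 CPM of controls, and missed the threshold (-0.30 ± 0.11, adjusted p = 0.0796), which it passed with library size scaling (0.0215). Csrp1, a LIM protein of smooth muscle and fibroblasts, was at 536 to 558 CPM after Wt1 siRNA, above the 421 to 468 CPM of controls (0.29 ± 0.10, adjusted p = 0.0535). It passed with DESeq2 (0.0181), limma-voom (0.0395) and robust shrinkage (0.0480). Csrp2 (-0.30 ± 0.18) and Synpo2, an actin-bundling protein of muscle with 6.32 to 8.95 CPM after Wt1 siRNA and 4.89 to 10.2 CPM in controls (-0.16 ± 0.28), did not pass.

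**Figure D2:**
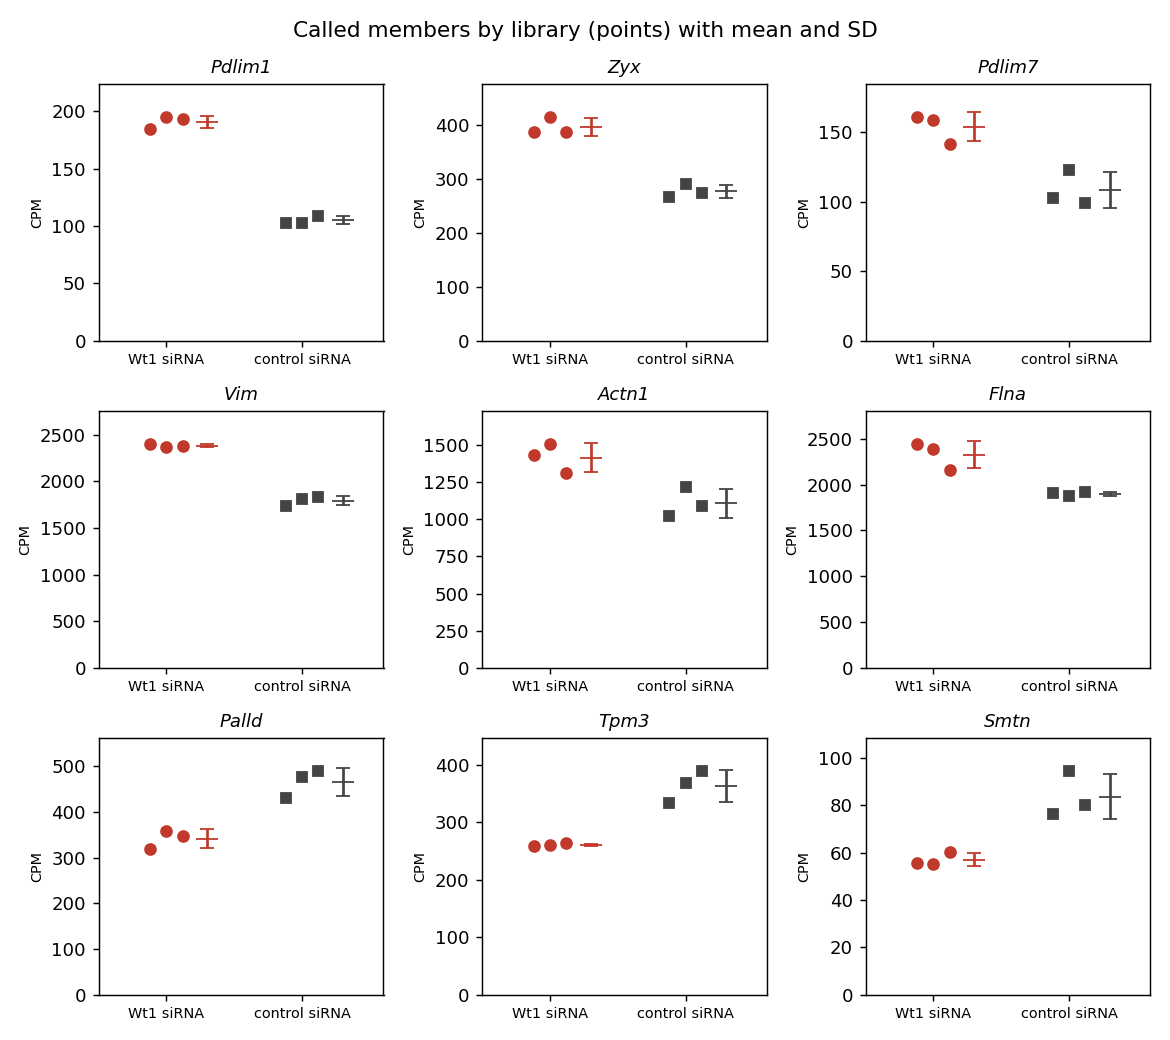
Level in CPM (vertical axes, from 0) of the 9 called members in the 3 Wt1 siRNA libraries (red circles) and the 3 control libraries (grey squares), with the mean and SD of each group beside the points. In every panel the groups are apart; Pdlim1 has the largest fold change of these genes, at 185 to 195 CPM after Wt1 siRNA and 103 to 109 CPM in controls.

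At focal adhesions, Zyx rose while the core linkers did not pass. Zyx, zyxin, a LIM protein that moves onto stretched stress fibres and recruits repair factors (chromosome 6, 42349511 to 42360213), had 388, 415 and 387 CPM after Wt1 siRNA against 267, 290 and 275 CPM in controls. The groups were far apart (0.52 ± 0.10, 1.43-fold, adjusted p = 0.00318), and the gene passed under all alternatives tried. Vcl, vinculin, which reinforces adhesions under load, had 776, 779 and 755 CPM after Wt1 siRNA and 793, 707 and 855 CPM in controls (-0.03 ± 0.10, adjusted p = 0.888). Tln1, talin, which couples integrins to actin, was at 696 to 813 CPM after Wt1 siRNA and 646 to 724 CPM in controls (0.16 ± 0.10, adjusted p = 0.323).

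Of the intermediate filament genes, Vim was called higher and Des was not called. Vim, vimentin, the intermediate filament protein of mesenchymal cells (chromosome 2, 13574311 to 13582826), had 2397, 2368 and 2381 CPM after Wt1 siRNA and 1737, 1808 and 1830 CPM in controls. It was one of the most uniform members within a group, and rose by 0.41 ± 0.09 in log2 units (adjusted p = 0.00726, but 0.0554 without Wt1 siRNA library 4). Des, desmin, the form of muscle cells, had 147, 168 and 126 CPM after Wt1 siRNA and 173, 206 and 183 CPM in controls. Its groups did not overlap, but the call was missed (-0.35 ± 0.13, adjusted p = 0.0695). Des passed without Wt1 siRNA library 5 (0.0418), with DESeq2 (0.0441) and with library size scaling (0.0204).

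Ratios between related genes within a library do not depend on how libraries are scaled, and 10 pairs were compared. In 4 pairs the groups did not overlap. For single genes the groups were apart in 36.4% of all genes tested, and ratios of pairs outside the members were not computed. With 3 libraries against 3 the exact two-sided permutation test cannot go below p = 0.10, the value each of these 4 had (0.25 after adjustment over the 10 pairs). Actn1 counts were 3, 2.86 and 2.91 times those of Actn4 after Wt1 siRNA and 1.81, 1.82 and 1.96 times in controls. This difference of 0.65 (log2) was large beside the SDs of 0.04 and 0.06. By exon length, Actn1 made up 75.2% ± 0.46 of the alpha-actinin signal after Wt1 siRNA and 65.8% ± 0.99 in controls (SD, n = 3). The Csrp1 to Csrp2 ratio was 33.6, 30.1 and 43.5 after Wt1 siRNA and 25.7, 20.9 and 23.5 in controls. Tpm2 to Tpm3 stood at 0.703, 0.734 and 0.741 after Wt1 siRNA and 0.568, 0.611 and 0.430 in controls, and Pdlim5 to Pdlim7 at 2.68, 2.69 and 2.72 against 3.88, 3.26 and 4.59. By contrast Myh9 to Myh10 (4.98 to 5.38 after Wt1 siRNA, 5.14 to 5.59 in controls) and Cnn1 to Cnn2 (0.185 to 0.189 against 0.174 to 0.193) overlapped. The ratio of Tagln to Tagln2 was 2.14, 2.37 and 1.71 after Wt1 siRNA and 1.5, 1.93 and 1.46 in controls, overlapping through control library 2 (exact permutation p = 0.20). Without control library 2, 7 of the 10 pairs did not overlap, but groups come apart more easily with fewer libraries.

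**Figure D3:**
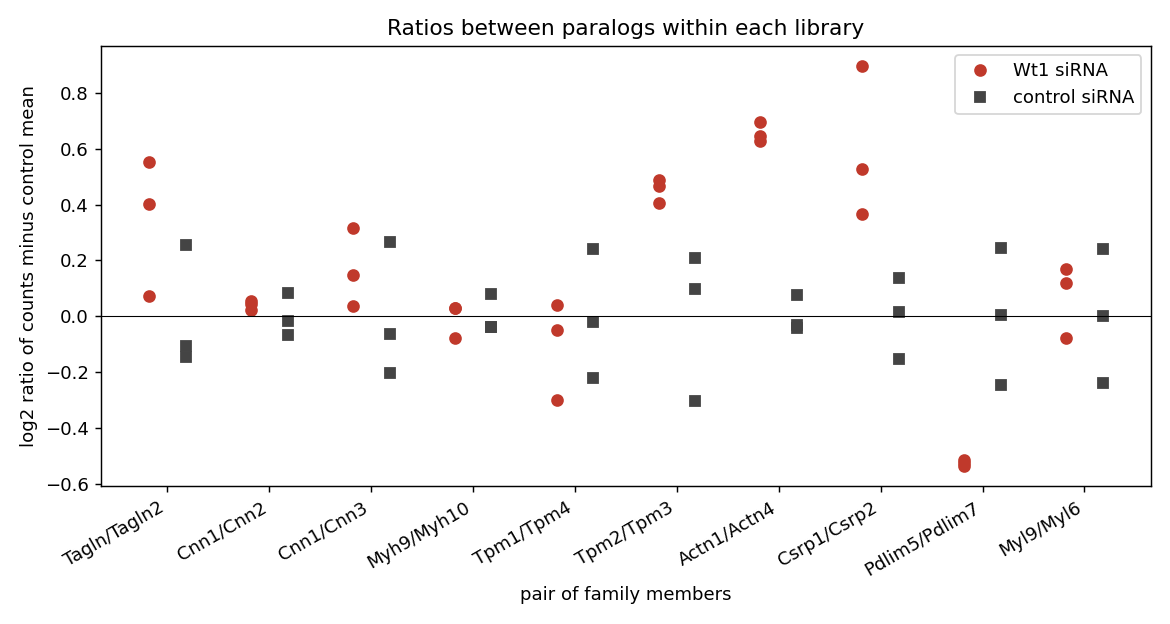
Log2 ratio of the counts of 2 related genes in each library, less the mean of the control libraries (vertical axis), for 10 pairs, with Wt1 siRNA libraries as red circles to the left of control libraries as grey squares. The Actn1/Actn4 points lie in tight, separate groups 0.65 apart, and the Myh9/Myh10 groups overlap.

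Among the 38 members, Wt1 siRNA library 5 was the highest of its group in 25 (65.8%, against 36.5% of all genes tested), and control library 2 was the highest of its group in 23 (60.5%, against 35.5%). In 18 members both held (47.4%, against 18.3% of all genes tested), among them Tagln, Cnn1, Myl9, Myl6, Tpm1, Myh9, Myh10, Actn1, Zyx and Des. For Tagln, library 5 was 0.32 and control library 2 was 0.24 above the mean of all libraries on the log2 scale, while Wt1 siRNA library 6 was 0.24 and control library 1 was 0.22 below it. The count for libraries 2 and 5 together was chosen after the values were seen. On the second principal component of log2 CPM over all genes tested, control library 2 (-42.8) and Wt1 siRNA library 5 (-21.2) also lay lowest. The remaining libraries ranged from -1.87 to 22.7. Libraries of a group have no order, and the labels give no batch that would pair libraries 2 and 5.

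**Figure D4:**
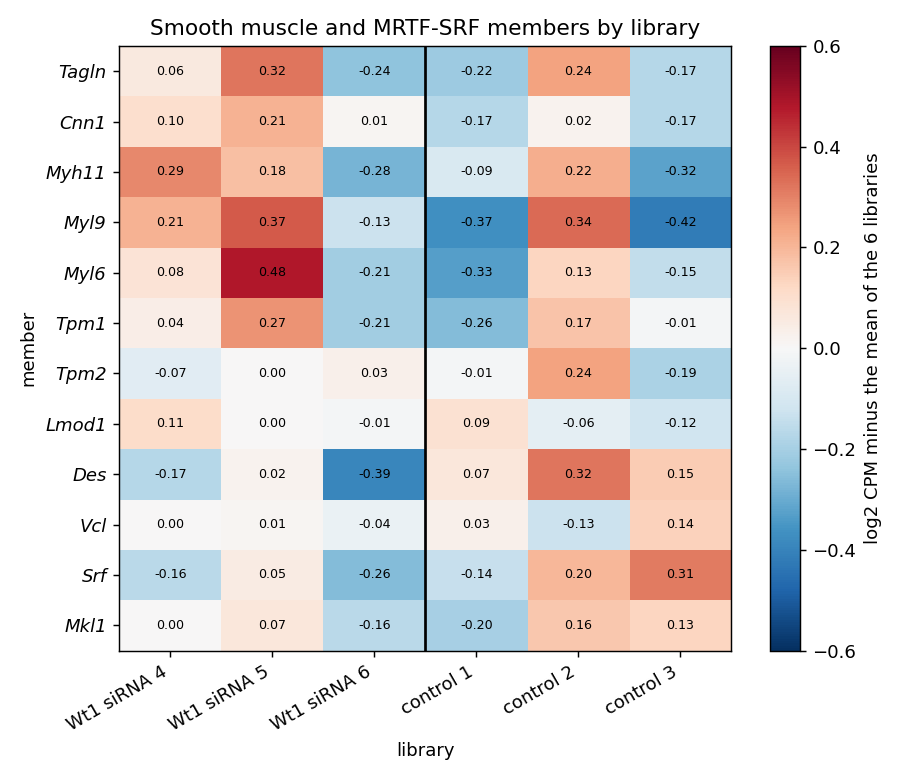
Log2 CPM of 12 members in each library less the gene's mean over the 6 libraries (colour and printed value), with the Wt1 siRNA libraries to the left of the line and controls to its right. Tagln, Myl9, Myl6 and Tpm1 are high in Wt1 siRNA library 5 and control library 2, and Vcl and Lmod1 vary little.

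Of 24 paralogs of the members, 14 passed the filter on low counts, with 1 higher and 3 lower (28.6% called, beside 19.3% of all genes tested). Myl12a, a regulatory light chain of non-muscle myosin, had 190, 207 and 194 CPM after Wt1 siRNA and 293, 339 and 264 CPM in controls (-0.60 ± 0.11, adjusted p = 0.00346). Smtnl2, a relative of smoothelin, had 26.7, 19.8 and 22.5 CPM after Wt1 siRNA and 49.2, 48.1 and 29.9 CPM in controls (-0.88 ± 0.19), the same direction as Smtn. Flnc, the filamin of muscle, rose by 0.37 ± 0.10, the same direction as Flna, and Synpo, synaptopodin, fell by 0.37 ± 0.11. The Flnc call was lost by leaving out control library 1 or 3, or library 4 or 5 of Wt1 siRNA (adjusted p = 0.0537 to 0.0985), and with library size scaling (0.0674). Synpo lost its call by leaving out control library 1 or 2 or any of the Wt1 siRNA libraries (0.0682 to 0.116).

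Promoter windows of 250 bases before to 50 after an annotated start (RefSeq, GRCm38.p6) were given for 34 of the members, 42 windows in all. Tagln, Myh11, Myocd and Csrp2 had no window, so they were not searched. A CArG box, the site of SRF, was found in 5 of these 34 genes (14.7%), against 1.62% of the genes tested that have a window. The 5 were Srf, Cnn2, Myl6, Myl9 and Vcl, none of which was called, beside 19.3% of all genes tested (0 of the 9 called members held a match). A site of the type bound by EGR factors and WT1, searched on both strands as GCGNGGGNG, was found in 13 of the 34 members (38.2%) and in 24.2% of the genes tested. Of the 9 called members 4 held a match: Zyx, Actn1 and Pdlim1, which were higher, and Palld, which was lower. The other members with a match, none of them called, were Actn4, Cnn2, Cnn3, Des, Myh9, Myl9, Ppp1r12a, Srf and Tpm4. Whether called members hold a match more often was not tested. A match is a description of the letters in the window, and no binding was measured. The 120 bases before the start are printed for Zyx, Actn1 and Palld as called genes with such a site there, for Actn4 as the paralog whose ratio to Actn1 moved, and for Cnn2 and Srf as members that hold both motifs. Myl9, not printed, also holds both, with its CArG box further upstream than 120 bases. Capitals mark the matches, which do not overlap each other: the CArG boxes are the 10-base runs with CC at one end and GG at the other, and the 9-base runs are GCGNGGGNG or its reverse complement.
Zyx (chr6:42349708-42349827, + strand): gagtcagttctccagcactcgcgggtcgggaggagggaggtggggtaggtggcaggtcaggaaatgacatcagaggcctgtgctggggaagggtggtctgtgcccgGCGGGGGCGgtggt
Actn1 (chr12:80260364-80260483, - strand): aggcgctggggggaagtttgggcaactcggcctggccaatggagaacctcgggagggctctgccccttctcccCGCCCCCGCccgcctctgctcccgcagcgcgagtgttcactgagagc
Actn4 (chr7:28962333-28962452, - strand): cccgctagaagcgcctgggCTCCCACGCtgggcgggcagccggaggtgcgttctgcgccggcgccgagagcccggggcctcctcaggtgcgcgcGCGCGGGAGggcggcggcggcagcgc
Palld (chr8:61760090-61760209, - strand): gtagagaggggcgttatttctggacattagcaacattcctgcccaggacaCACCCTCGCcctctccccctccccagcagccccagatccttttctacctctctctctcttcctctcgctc
Cnn2 (chr10:79988480-79988599, + strand): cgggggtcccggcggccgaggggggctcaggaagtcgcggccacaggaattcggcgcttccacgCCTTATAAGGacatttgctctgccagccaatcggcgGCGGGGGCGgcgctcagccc
Srf (chr17:46556163-46556282, - strand): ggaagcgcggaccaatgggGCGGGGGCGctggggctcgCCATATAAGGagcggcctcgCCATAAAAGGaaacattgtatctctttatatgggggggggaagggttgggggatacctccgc
Palld has 3 windows, of which 1 is shown. For Cnn2 the start used is the first base of the annotated gene span (79988600). For the other genes shown it lies further inside the span, so that some or all of their printed bases are within the annotated gene.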

How the data were processed

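Counts of reads per gene were deposited for 6 libraries, as raw whole numbers without normalization. Per the submitters' processing notes, bcl2fastq, CASAVA 1.8, TopHat, DESeq and the build mm10 (GRCm38) are named, with no role or order. The counter, annotation and strand setting were not stated, and reads of similar paralogs or of overlapping antisense genes cannot be told apart. Gene IDs were matched to gene symbols (79 of 24061 unmatched). The main test was edgeR 4.0.16 (R 4.3.3) quasi-likelihood with TMM factors of 0.940 to 1.07, filterByExpr (14190 genes kept), siRNA group alone and Benjamini-Hochberg adjustment over all genes tested at 0.05. Standard errors were derived from F as |log2 fold change|/√F. Levels are CPM computed with the TMM factors. Levels per length divide by the union of GENCODE M21 exons. Ratios add 0.5 counts and use exact permutation tests (scipy 1.17.1). Alternatives were DESeq2 1.42.0, voom of limma 3.58.1, library size scaling, DESeq2 size factors, robust shrinkage, no filter, a stricter filter (1 CPM in 3 libraries), 5 counts added to ratios, and each library left out. Counts for the 14190 genes were also simulated 5 times, with 200 genes of any level changed each time. Of the genes changed, 24.5% were recovered at 1.5-fold, 67.8% at 2-fold and 87.6% at 4-fold, and 7.29% of calls were false.

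The members and lists were chosen with earlier results of these data known. Values in every library are given for called members and for 12 set members (Srf, Mkl1, Myocd, Tagln, Cnn1, Myh11, Myl9, Tpm1, Tpm2, Des, Vim and Vcl), and ranges for the others; from the further lists, the called genes with the smallest p are named, up to 4 for the list of paralogs and 1 for each marker list. A further list of pathway genes is not reported here. Ppp1r12a is given by library, Col1a1, Col1a2, Col3a1, Rgs5, Pdgfrb, Myod1, Myog and Myf5 are named, and the Cnn2 and Srf sequences are shown, by choices made after the values were seen.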

Additional observations from a re-analysis of the deposited data

How the results depend on the processing

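Wt1 kept its direction and its call under all 13 alternatives (log2 fold change -2.65 to -2.38). Of the 9 called members, Pdlim1, Zyx, Tpm3 and Smtn passed under all 13, Tpm3 and Smtn narrowly without Wt1 siRNA library 4. The other 5 lost the call in 15 of the 117 values computed for the 9, as given beside them. Members called were 2 to 6 higher and 2 to 4 lower with a library left out. Library size scaling called 8 lower members and DESeq2 6. In the whole table, library size scaling called 855 higher genes, and leaving out a library gave 578 to 1253 higher and 785 to 1406 lower. Library size scaling moved the median of all genes tested to -0.082 (log2) and the share of higher genes among calls to 31.9%, from 46.8%. In the paralog list, leaving out a library gave 0 to 2 higher, and library size scaling gave 0. Pairs without overlap numbered 4 to 7 with a library left out. Signs turned, always without a call, for Tagln (-0.05 without Wt1 siRNA library 5; -0.05 to 0.26 with a library left out), Cnn3 (-0.04 with library size scaling; -0.02 to 0.12 with a library left out), Tpm1 (-0.02 with library size scaling; -0.06 to 0.18), Tpm2 (-0.13 to 0.09), Lmod1 (-0.03 with library size scaling), Synpo2 (-0.41 to 0.04), Pdlim5 (-0.04 to 0.06) and Vcl (-0.10 to 0.04). The cause was not tested. No paired analysis was possible because the groups share no replicate number. Most simulated 1.5-fold changes were missed. The simulation changed 200 of 14190 genes, drawn over all levels, whereas 19.3% of the genes tested were called here. Its recovery therefore does not give the power for these members, and a member that was not called may still differ.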

Other observations

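The spread within a group differed widely between members. Vim had a coefficient of variation of 0.609% after Wt1 siRNA and 2.72% in controls, and Flna 6.48% and 1.23%. Myl9 varied by 17.1% after Wt1 siRNA and 31.2% in controls, Myl6 by 24.3% and 16.5%, and Tagln by 19.1% and 18.3%. Per kb of annotated exon, the most abundant members were Vim (1086 CPM per kb after Wt1 siRNA, 817 in controls) and Tagln (1029 and 961), followed by Tpm4 (658 and 587), while Myocd was lowest (0.333 and 0.244), below Synpo2 (0.561 and 0.624) and Pdlim3 (0.897 and 0.547).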
